A study of Mus musculus with 2 samples.

Results

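The cytoplasmic ribosomal protein genes are the genes for the proteins of the ribosome outside mitochondria. They were taken as every protein-coding gene whose symbol begins with Rpl, Rps, Rplp or Rpsa in the pattern of a ribosomal protein name, with the S6 kinases and Rps19bp1 left out. This gave 85 genes of the 21461 nuclear protein-coding genes in the gene tables, of which 52 belong to the large subunit and 33 to the small subunit. Of the 85 genes, 8 are paralogs named after another gene of the set (Rpl3l, Rpl7l1, Rpl10l, Rpl22l1, Rpl36al, Rpl39l, Rps27l and Rps27rt), and their counterparts are Rpl3, Rpl7, Rpl10, Rpl22, Rpl36a, Rpl39 and Rps27. The study sequenced total RNA, depleted of ribosomal RNA, from CFU-E, the colony-forming unit erythroid stage of red cell development, isolated from bone marrow. The mice were C57BL/6J males, 5 to 6 weeks old. The labels give 1 group of 2 libraries, replicate 1 and replicate 2, each made by ScriptSeq from 100 ng of RNA, with no treatment and no control group. Both libraries carry the same donor identifier and different sample identifiers, so the spread between them may hold little variation between animals. With 1 group no condition was compared and no test was run.

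A ribosome carries 1 copy of most of its proteins, and the genes for them are transcribed as a large, broadly expressed set. In cells that make red cells, the demand for globin makes ribosome number matter, and in humans a lowered dose of any of several ribosomal proteins causes Diamond-Blackfan anaemia, a failure of red cell production. Many of these genes have also left intronless copies elsewhere in the mouse genome, and their transcripts are known to begin in a run of pyrimidines, the terminal oligopyrimidine tract, through which growth signals control their translation.

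The libraries held 62576357 expected counts in replicate 1 and 36889542 in replicate 2. An expected count is an estimate that divides a read matching several genes among them, and TPM is a level per length, scaled to the same total in each library. Replicate 1 had 46.2% of its counts, and 12.4% of its TPM, on nuclear protein-coding genes, and replicate 2 had 46.6% and 7.49%. TPM values below are therefore compared within a library, and libraries are compared on counts scaled with TMM, edgeR's library scaling. An SD of TPM below also holds this difference in TPM share, so it does not measure the spread between replicates alone. Of 12 erythroid marker genes, 11 had at least 10 TPM in both libraries, and Kit, a receptor of the CFU-E stage, had 0.42 TPM in replicate 1 and 0.51 in replicate 2. All 7 granulocyte markers also had at least 10 TPM in both libraries, with a summed level of 1190 and 599 TPM, against 27144 and 12499 TPM for the erythroid markers. The part of such cells in the ribosomal protein levels was not tested, and in bulk RNA fewer cells of a type and less RNA per cell cannot be told apart.

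Nearly all ribosomal protein genes were among the more abundant protein-coding RNAs of these cells. Of the 85 genes, 81 had at least 1 TPM in both libraries, against 23.9% of all nuclear protein-coding genes. At least 10 TPM in both libraries was reached by 75 of the 85 genes, against 4.79% of nuclear protein-coding genes. In each library 78 of the 85 lay in the top 10% of nuclear protein-coding genes by TPM. Their median level was 45.5 TPM in replicate 1 and 33.6 in replicate 2, a mean of 39.5 ± 8.42 TPM (SD, n = 2). The other nuclear protein-coding genes had a median of 0 TPM in replicate 1 and 0.04 in replicate 2. Together the 85 genes took 1.32% of nuclear protein-coding counts in replicate 1 and 1.505% in replicate 2, and 3.77% and 4.22% of nuclear protein-coding TPM. TPM divides counts by length, so the share on that scale gives short transcripts more weight.

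**Figure D1:**
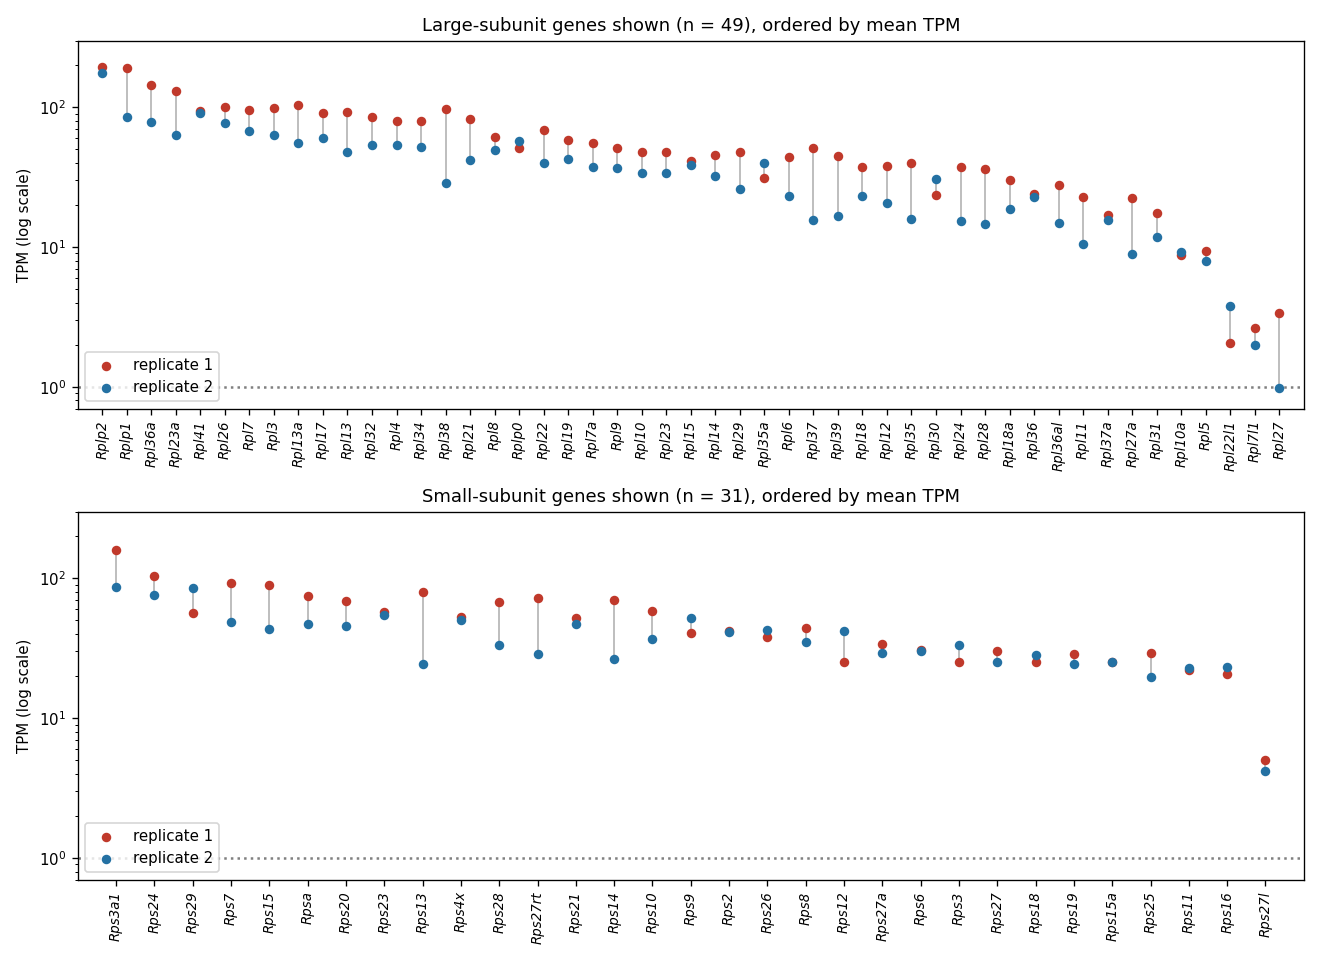
TPM on a log scale for ribosomal protein genes with counts in replicate 1 (red) and replicate 2 (blue), large subunit above and small subunit below, each ordered by mean TPM; the dotted line is 1 TPM. Rplp2 stands highest at 195 and 176 TPM, and Rpl27 alone crosses the line, at 3.40 and 0.99 TPM; Rpl3l, Rpl10l and Rpl39l had 0 counts and are not drawn.

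By mean TPM the first 2 places were held by proteins of the acidic stalk, the flexible arm of the large subunit that recruits translation factors. Rplp2 (chr7:141447370-141451585, GRCm38), a stalk protein, had 195 TPM in replicate 1 and 176 in replicate 2, a mean of 186 ± 13.1 TPM (SD, n = 2). Rescaled to the TPM of nuclear protein-coding genes alone, Rplp2 had 1571 in replicate 1 and 2357 in replicate 2, the opposite order. Its partner Rplp1 (chr9:61913284-61914542) had 191 and 85.5 TPM, a mean of 138 ± 74.8 TPM. These were the highest 2 genes by mean TPM, and in replicate 2 Rplp1 lay below Rpl41 and Rps3a1. On TMM-scaled counts the log2 ratio of replicate 1 over replicate 2 was -0.66 for Rplp2 and 0.38 for Rplp1. Rplp0, the base on which both are mounted, had 50.8 TPM in replicate 1 and 57.7 in replicate 2. Rpl12, which joins the stalk base to ribosomal RNA, had 37.9 and 20.6 TPM. Of this Rpl12 level, 10.3% in replicate 1 and 35.1% in replicate 2 lay on transcripts annotated as coding. In TPM Rplp1 and Rplp2 stood above Rplp0 in both libraries. In expected counts, with no length correction, Rplp0 was above both, with 9417 in replicate 1 and 10234 in replicate 2. Rplp1 had 8527 and 4043 counts, and Rplp2 had 6742 and 6578.

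The next places were held by core proteins of both subunits. Rps3a1, a protein of the small-subunit platform, had 159 TPM in replicate 1 and 86.3 in replicate 2. Rpl36a, a large-subunit protein near the exit site for transfer RNA, had 144 and 78.2 TPM, and Rpl23a, which lines the mouth of the peptide exit tunnel, had 131 and 63.5 TPM. These genes were higher in replicate 1 on the TPM scale, as were 68 of the 82 genes with counts. On that scale nuclear protein-coding genes averaging at least 50 counts also had a median log2 ratio of 0.66, replicate 1 over replicate 2. On TMM-scaled counts the median over the 82 ribosomal protein genes was -0.16, of opposite sign. Rpl41, the smallest ribosomal protein, had 94.2 TPM in replicate 1 and 91.7 in replicate 2. Rps24 had 105 and 76.4 TPM and Rpl26 had 100.3 and 77.8 TPM, both genes of the Diamond-Blackfan list. Rpl7, a large-subunit protein, had 95.1 and 68.1 TPM, so that Rplp2 stood 2.28 times above the gene of rank 10 by mean TPM.

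At the bottom of the set were 3 paralogs with 0 counts in both libraries and a few genes below 10 TPM. Rpl27 had 3.40 TPM in replicate 1 and 0.99 in replicate 2, and was the only gene with counts that lay under 1 TPM in a library. Rpl7l1 had 2.66 and 1.98 TPM, Rpl22l1 had 2.07 and 3.78 TPM, and Rps27l had 5.05 and 4.22 TPM. Apart from these paralogs, the genes under 10 TPM in both libraries were Rpl27, Rpl5 at 9.45 and 7.95 TPM, and Rpl10a at 8.73 and 9.17 TPM. All 3 are core proteins of the large subunit present in every ribosome, and the deposited tables place more counts under an intronless copy than under the gene itself for Rpl27 and Rpl5 in both libraries, and for Rpl10a in replicate 1.

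Large-subunit and small-subunit genes had like levels. The median large-subunit gene had 46.5 TPM in replicate 1 and 31.5 in replicate 2, and the median small-subunit gene had 43.9 and 35.1 TPM. The log2 ratio of large to small was 0.08 in replicate 1 and -0.16 in replicate 2, a mean of -0.04 ± 0.17 (SD, n = 2), so its sign differed between the libraries. On the deposited TPM the large subunit spread more widely. The SD of log2 TPM over genes with counts was 1.42 in replicate 1 and 1.40 in replicate 2 for large-subunit genes. It was 0.95 and 0.81 for small-subunit genes. The large-subunit values hold the paralogs Rpl7l1 and Rpl22l1, and Rpl27 and Rpl5 without their copies. With copies added Rpl27 had 131 and 47.6 TPM and Rpl5 had 134 and 80.7 TPM. The spread with copies added is not given here. The lowest gene of the small subunit was Rps27l, and no small-subunit gene had 0 counts. The sign of the median ratio also changed when paralogs were left out (0.05) or when counts were divided by full length (0.08). The mean of log2(TPM + 0.1) gave -0.70, a value that holds the 3 large-subunit paralogs at 0.

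The 22 genes of the Diamond-Blackfan list, whose human counterparts carry mutations in that anaemia, ran from 2.19 to 90.6 TPM by mean. The highest of them, Rps24, held rank 7 in the set. At least 1 TPM in both libraries was found for 21 of the 22, and at least 10 TPM for 20. In the whole set these counts were 81 and 75 of 85 genes, so the list's shares were near those of the set. Their median was 40.4 TPM in replicate 1 and 36.9 in replicate 2. Rps19, the gene most often affected in patients, had 28.8 TPM in replicate 1 and 24.4 in replicate 2. Among the higher small-subunit genes, Rps7 had 92.2 and 48.6 TPM and Rps28 had 67.7 and 33.6 TPM. Rps20 had 68.6 TPM in replicate 1 and 45.7 in replicate 2, and Rps10 had 58.9 and 37.1 TPM. Rps29 had 56.5 TPM in replicate 1 and 85.3 in replicate 2, and Rps26 had 38.2 and 42.8 TPM. Rps15a, among the lower small-subunit genes of the list, had 25.1 and 25.4 TPM. Rps27, which has a paralog of the same coding sequence, had 30.02 and 25.2 TPM.

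Before counts of copies were added, large-subunit genes of that list ran from a mean of 2.19 TPM for Rpl27 to 89.1 TPM for Rpl26. This range was wider than that of the list's small-subunit genes. Rpl8, next to the catalytic centre, had 61.2 TPM in replicate 1 and 49.8 in replicate 2, and Rpl9 had 51.2 and 36.6 TPM. Rpl15 had 41.0 and 38.6 TPM, Rpl18 had 37.3 and 23.3 TPM, and Rpl35a had 31.4 and 40.1 TPM. Rpl5 and Rpl11 form a particle with 5S ribosomal RNA that joins the large subunit and can also bind Mdm2, the ubiquitin ligase of p53. Rpl11 had 22.8 TPM in replicate 1 and 10.6 in replicate 2, a mean of 16.7 ± 8.68 TPM (SD, n = 2). Rpl5 averaged 8.70 ± 1.06 TPM before reads of its copies were added. Rpl31 had 17.4 and 11.9 TPM and Rpl35 had 39.7 and 15.8 TPM, so the lowest 3 values of the list were those of Rpl27, Rpl5 and Rpl31 or Rpl11, depending on the library.

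On the deposited TPM, paralogs stood below their counterparts with 1 exception. Rpl36al had 27.6 TPM in replicate 1 and 14.8 in replicate 2, against 144 and 78.2 TPM for Rpl36a. The log2 ratio of Rpl36al to Rpl36a was -2.39 ± 0.01 (SD, n = 2), and it averaged -2.14 in counts without length correction. Of the counts of Rpl36al and its copy, the copy held 21.7% in replicate 1 and 18.7% in replicate 2. With copies added, Rpl36al had 49.3 and 23.4 TPM, against 144 and 78.4 TPM for Rpl36a. Rpl7l1, a longer relative of Rpl7, had a log2 ratio of -5.13 ± 0.04 to Rpl7, whose levels were 95.1 and 68.1 TPM. On the deposited TPM, without copies, these 2 pairs had almost the same ratio in both libraries. Rpl22l1 had 2.07 TPM in replicate 1 and 3.78 in replicate 2, against 68.6 and 39.6 TPM for Rpl22, and the log2 ratio was -5.05 in replicate 1 and -3.39 in replicate 2. Rpl22l1 had 137 and 291 counts, and none of its TPM lay on coding transcripts in either library.

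The tissue-restricted paralogs had no counts. Rpl3l is known from striated muscle, and Rpl10l and Rpl39l from the testis. Set at a floor of 3 counts in each library, Rpl3l was at least 4173-fold lower than Rpl3 in replicate 1 and at least 2636-fold lower in replicate 2. On the same floor Rpl10l was at least 2094-fold and 1440-fold lower than Rpl10, and Rpl39l was at least 1118-fold and 417-fold lower than Rpl39. These bounds cover counting error only. The coding sequences of Rpl39l and Rpl39 differ at 23 of 156 bases, and the longest stretch they share is 38 bases. Both coding sequences are shown because reads of the genes can be told apart by them, with the differing bases in capitals (5′ to 3′, GENCODE M21 transcripts on GRCm38, Rpl39l at chr16:10174310-10174465 on the plus strand and Rpl39 at chrX:37082701-37085127 on the minus strand):
Rpl39l: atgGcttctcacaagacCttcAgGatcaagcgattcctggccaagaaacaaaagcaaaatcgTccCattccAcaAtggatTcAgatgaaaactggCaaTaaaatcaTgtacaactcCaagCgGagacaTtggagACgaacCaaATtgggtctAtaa
Rpl39: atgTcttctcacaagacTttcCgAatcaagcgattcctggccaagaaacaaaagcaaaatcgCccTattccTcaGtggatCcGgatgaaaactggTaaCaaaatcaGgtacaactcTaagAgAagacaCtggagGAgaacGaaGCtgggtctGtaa

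**Figure D2:**
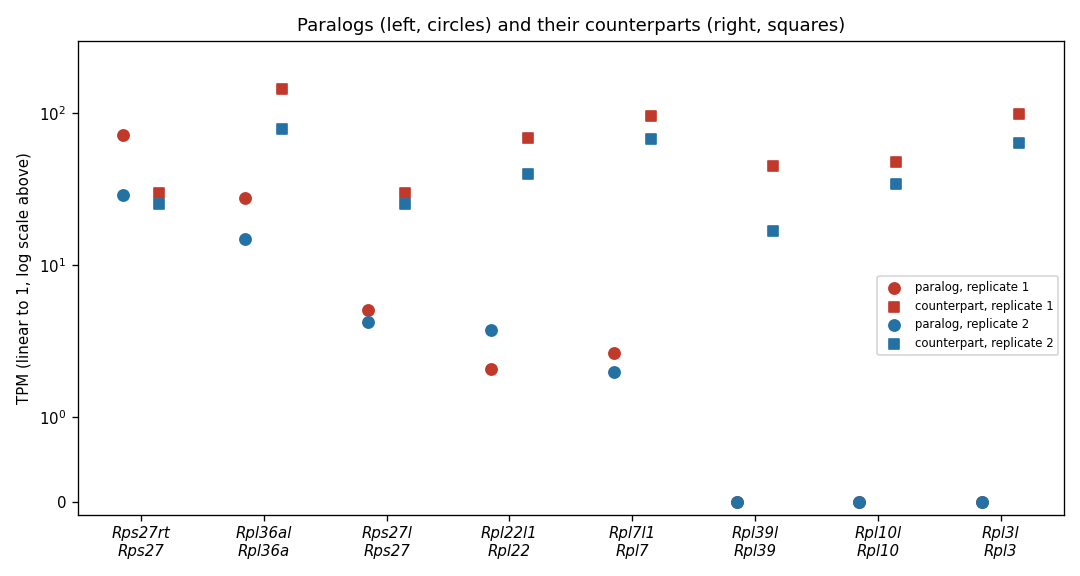
TPM of each paralog (circles) and its counterpart (squares) in replicate 1 (red) and replicate 2 (blue), on an axis that is linear to 1 TPM and logarithmic above. Rps27rt is the only paralog drawn above its counterpart, at 72.3 and 28.9 TPM against 30.02 and 25.2 TPM for Rps27. Reads in the coding sequence that these genes share cannot be assigned to either. Rpl39l, Rpl10l and Rpl3l lie at 0.

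The Rps27 family held the exception. Rps27 (chr3:90212522-90213651) encodes a zinc-finger protein of the small subunit, Rps27l (chr9:66946086-66949516) is its paralog and a known target of p53, and Rps27rt (chr9:114982366-114982739) is a second gene with the coding sequence of Rps27. Rps27rt had 72.3 TPM in replicate 1 and 28.9 in replicate 2, against 30.02 and 25.2 TPM for Rps27, with log2 ratios of 1.27 and 0.20. In counts Rps27rt had 1786 and 828, against 265 and 315 for Rps27. The coding sequences of both genes are identical over all 255 bases, so a read inside them cannot be assigned to either gene. The deposited length of Rps27 was 255 bases, equal to its coding sequence, against 370 bases for Rps27rt. Which of the genes was higher cannot be told from these values. The counts of both genes were fractional, and their sums were 2051 in replicate 1 and 1143 in replicate 2, whole within a tolerance of 0.025. The pair had a summed level of 102 TPM in replicate 1 and 54.1 TPM in replicate 2, a mean of 78.2 TPM. The log2 ratio of its summed counts between libraries was 0.14, against 0.41 for Rps27rt and -0.95 for Rps27 alone.

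Rps27l was the paralog that reads could separate. Rps27l had 5.05 TPM in replicate 1 and 4.22 in replicate 2, with whole counts of 223 and 208. Its log2 ratio to Rps27 was -2.57 in replicate 1 and -2.58 in replicate 2, and to the sum of Rps27 and Rps27rt it was -4.01 on average. The effective length of Rps27, the number of places a fragment can start, was only 54.0 bases in replicate 1 and 83.1 in replicate 2. In counts without length correction the log2 ratio of Rps27l to Rps27 was -0.42. In transcripts of equal coding length, the coding sequences of Rps27l and Rps27 differ at 61 of 255 bases, and the longest shared stretch is 11 bases. They are given with the differing bases in capitals (Rps27l at chr9:66946175-66949357, plus strand, and Rps27 at chr3:90212725-90213615, minus strand), and that of Rps27rt has the same letters as Rps27:
Rps27l: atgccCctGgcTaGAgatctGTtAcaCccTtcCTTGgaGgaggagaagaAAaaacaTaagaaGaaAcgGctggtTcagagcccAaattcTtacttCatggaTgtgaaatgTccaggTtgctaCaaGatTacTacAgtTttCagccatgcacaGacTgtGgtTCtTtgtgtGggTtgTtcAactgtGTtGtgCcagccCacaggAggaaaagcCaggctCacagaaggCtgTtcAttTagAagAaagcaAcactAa
Rps27: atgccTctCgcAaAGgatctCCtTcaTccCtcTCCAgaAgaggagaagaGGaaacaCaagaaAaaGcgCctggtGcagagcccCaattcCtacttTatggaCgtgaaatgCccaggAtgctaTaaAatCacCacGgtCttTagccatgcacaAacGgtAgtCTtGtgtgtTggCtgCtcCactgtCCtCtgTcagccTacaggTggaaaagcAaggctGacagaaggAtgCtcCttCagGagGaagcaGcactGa

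Reads of ribosomal protein genes were divided with many copies elsewhere in the genome. A copy was a gene of the tables outside the set that shared at least 100 words of 50 bases with a member's coding transcripts. It was counted under the member with which it shared most words, where it did not overlap that member. Of the 85 genes, 67 had at least 1 copy, and there were 321 copies in all, of which 210 had counts. The genes themselves held 381456 counts in replicate 1 and 258763 in replicate 2, and their copies held 73676 and 41702. The copies' part of the sum was 16.2% in replicate 1 and 13.9% in replicate 2. The median gene had 2.67% and 4.07% of its counts under copies, so the total rested on a few genes. Of the 85 genes, 63 in replicate 1 and 68 in replicate 2 had fractional counts. For 51 and 50 of these the sum with the copies was whole within 0.025.

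For 4 genes the copies held more than 50% of the counts in both libraries. Rpl27 had 264 counts in replicate 1 and 66 in replicate 2, against 5265 and 2060 under its copies, nearly all of them under Rpl27-ps3, a processed pseudogene with 5263 and 2047. Rpl5 (chr5:107900502-107909005) had 1859 and 1649 counts, against 16232 and 9145 under Gm15500, a transcribed processed pseudogene at chr7:114705217-114706235 that was named after its values were seen. Rps6, the substrate of the S6 kinases (chr4:86854660-86857412), had 3205 and 3132 counts, against 9404 and 5048 under Rps6-ps4 at chr2:75191073-75191822. Each of these genes was below its copy in both libraries. Rps12 had 1041 counts in replicate 1 and 1871 in replicate 2, against 3718 and 2732 under 14 copies, of which Rps12l1 held 2320 and 1793. With copies added, Rpl5 had 134 TPM in replicate 1 and 80.7 in replicate 2, Rps6 had 141 and 89.1 TPM, Rps12 had 136 and 117 TPM, and Rpl27 had 131 and 47.6 TPM. All 4 sums lay above the median of the set in both libraries, whereas without copies Rpl5 and Rpl27 lay at its foot.

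The coding sequence of Rpl5 is identical to Gm15500 over 894 bases, and that of Rps6 to Rps6-ps4 over 750 bases. The genes carry introns inside the coding sequence, 7 in Rpl5 and 4 in Rps6, and their copies hold the same bases without a break. A read across a junction of coding exons therefore matches the spliced gene and the copy equally. The stretches below run over 1 such junction in each gene and show the letters that gene and copy share, with the 2 bases that flank the junction in capitals (Rpl5 at chr5:107901910-107902051, plus strand, where an intron of 82 bases is spliced out, and Rps6 at chr4:86856327-86856757, minus strand, with an intron of 371 bases):
Rpl5: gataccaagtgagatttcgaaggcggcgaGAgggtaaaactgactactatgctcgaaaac
Rps6: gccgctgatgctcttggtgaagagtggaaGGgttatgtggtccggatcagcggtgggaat

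**Figure D3:**
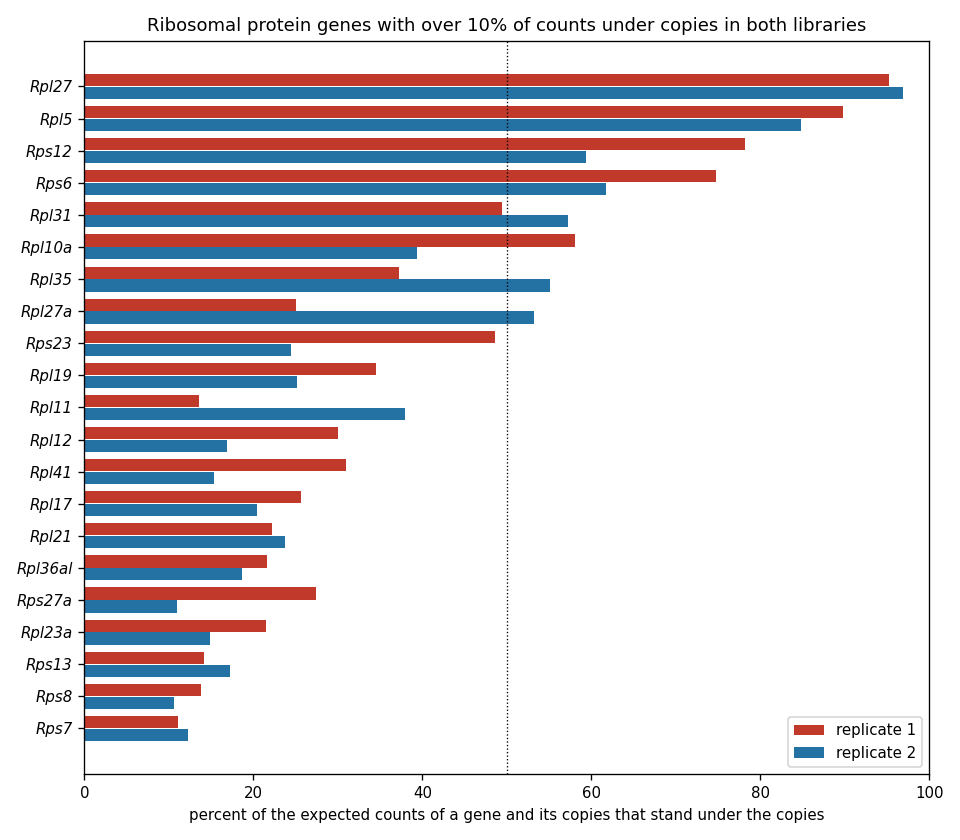
Percent of the expected counts of a ribosomal protein gene and its copies that stand under the copies, in replicate 1 (red) and replicate 2 (blue), for the 21 genes with over 10% in both libraries; the dotted line is 50%. Rpl27, at 95.2% and 96.9%, and Rpl5, at 89.7% and 84.8%, lie farthest to the right.

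Another 17 genes had between 10% and 50% of their counts under copies in at least 1 library and over 10% in both. Rps23, a decoding-centre protein, had 5013 counts in replicate 1 and 4708 in replicate 2, against 4731 and 1528 under its copies, of which Rps23-ps1 held 4655 and 1448. Rpl19 had 5006 and 3688 counts, against 2636 and 1020 under Rpl19-ps11. For Rpl31 the processed pseudogene Rpl31-ps8 held 1732 and 1356 counts, against 1775 and 1032 under the gene. Which side held more therefore differed between the libraries for Rpl31. Rpl17 had 8263 and 5402 counts, against 2062 and 779 under Rpl17-ps8. Rpl8 and Rps20 were among the 18 genes with no copy by this measure. So were Rps27 and Rps27rt, because genes of the set were not counted as copies of each other.

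**Figure D4:**
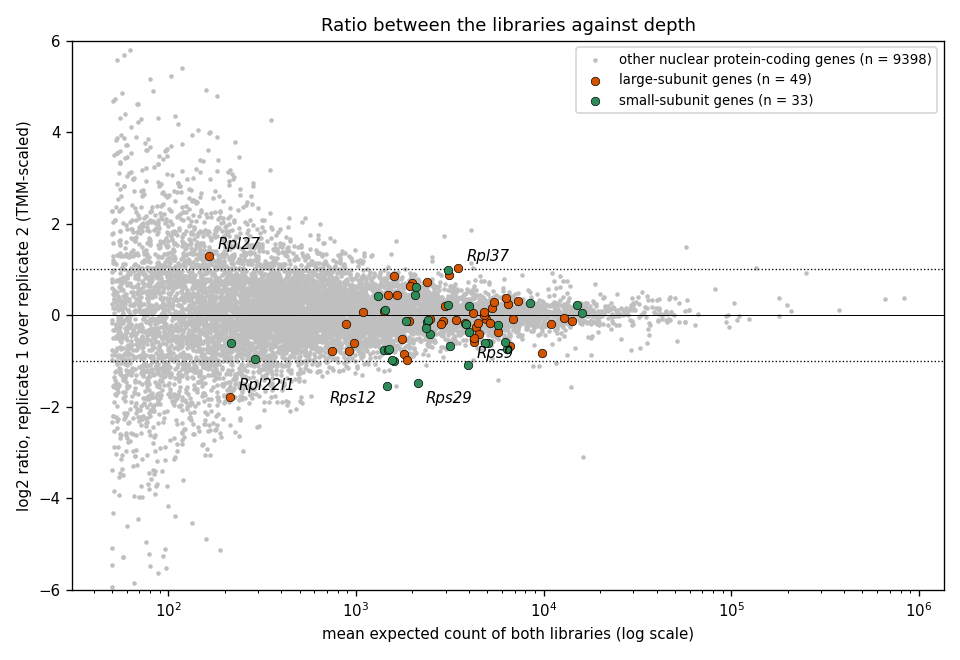
Log2 ratio of replicate 1 over replicate 2 on TMM-scaled counts against the mean expected count, both libraries, for ribosomal protein genes of the large (orange) and small (green) subunit over other nuclear protein-coding genes (grey); dotted lines mark 2-fold. The 6 labelled genes lie beyond 2-fold, 2 above and 4 below, and 99 other genes lie outside the plotted range.

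Between the libraries the genes did not move as a block. With counts scaled by TMM, a prior count of 0.5 and a mean count of at least 50, 82 genes could be compared, of which 30 were higher in replicate 1 and 52 higher in replicate 2. Their median log2 ratio of replicate 1 over replicate 2 was -0.16, against 0.03 for 9398 other nuclear protein-coding genes. Large-subunit genes had a median of -0.11 and small-subunit genes a median of -0.37. On the deposited TPM the median of the genes was 0.56, of opposite sign, and that of all nuclear protein-coding genes was 0.66, so the ribosomal protein genes stood below the rest on both scales. At least 2-fold higher in replicate 1 were 2 genes of 82, against 10.8% of all 10403 genes of that depth. At least 2-fold higher in replicate 2 were 4 genes, against 10.3%.

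At high depth the genes spread more between libraries than other genes did. Among the 74 that averaged 1000 counts or more, 4 were 2-fold apart, a share of 5.41%, against 1.39% of 3384 nuclear protein-coding genes. The median distance from the median log2 ratio was 0.37 for these 74 genes and 0.19 for 3310 other genes. Over the 82 genes it was 0.41, and 0.24 after the counts of copies were added. Rps12 moved from -1.55 alone to -0.65 with its copies, Rpl5 from -0.53 to 0.04 and Rps6 from -0.67 to -0.07. Rpl27 had 1.29 alone and 0.68 with its copies.

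Of the 6 genes at least 2-fold apart, 3 were small-subunit genes higher in replicate 2. Rps29 had 1571 counts in replicate 1 and 2692 in replicate 2, a log2 ratio of -1.48 after scaling, and the ratio with its 1 copy added was also -1.48. Rps9, which contributes to decoding accuracy, had 3422 and 4481 counts and a log2 ratio of -1.09, with no copy. Rpl22l1 had a ratio of -1.78 and Rps18 one of -0.998, just short of 2-fold. In the other direction Rpl37 had 5378 and 1612 counts and a ratio of 1.04. Rps13 followed at 0.99, Rpl35 at 0.89 and Rpl38, known in mice for its part in translating Hox mRNAs, at 0.86. Across the 82 genes the log2 ratio was weakly related to transcript length (Pearson's r = 0.06, Spearman's rho = 0.09) and to coding GC content (r = 0.06, rho = 0.02), both as descriptions across genes that share the 2 libraries. Log2 TPM in replicate 1 and replicate 2 had r = 0.89 and rho = 0.82 over the same genes. Over 9398 other nuclear protein-coding genes the values were higher, r = 0.92 and rho = 0.91.

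Of the 82 genes averaging 50 counts or more, 60 had several annotated transcripts and 22 had 1, whose share is 100% by construction. In 23 of the 60 the major transcript made at least 90% of the gene's TPM in both libraries. In 3 genes it made less than 60% in both. The shares of other nuclear protein-coding genes past these limits are not given here, so the counts are description only. For Rpl30, the main coding transcript made 49.3% in replicate 1 and 48.2% in replicate 2, and a noncoding transcript made 20.5% and 30.8%. For Rpl5, the main coding transcript made 43.4% and 55.8%, and a retained-intron transcript made 34.7% and 30.04%. For Rpl31, the order of the 2 leading coding transcripts differed between libraries. One made 58.0% in replicate 1 and 29.5% in replicate 2, and the other made 25.1% and 48.4%. Of the counts of gene and copies together, the copies held 89.7% in replicate 1 and 84.8% in replicate 2 for Rpl5. For Rpl31 they held 49.4% and 57.2%, and for Rpl30 3.15% and 4.30%. The part of this division of reads in the transcript shares was not tested.

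Retained-intron transcripts held 3.84% of the genes' counts in replicate 1 and 4.29% in replicate 2, against 6.87% and 7.26% in other nuclear protein-coding genes. Rps20, a small-subunit protein of the Diamond-Blackfan list, had 87.0% of its counts in replicate 1 and 83.9% in replicate 2 on transcripts annotated as retained introns. The major transcript of Rps20 bears that annotation and made 98.5% of its TPM in replicate 1 and 92.2% in replicate 2. Rps20 was named after its values were seen.

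Many of the genes carry small nucleolar RNAs, which guide modifications of ribosomal RNA. Of the 85 genes, 30 held at least 1 such RNA gene on the same strand, 35.3%, against 273 of the nuclear protein-coding genes, 1.27%. The 58 guests are 65 to 203 bases long, and 22 had counts in both libraries. Snora33, in Rps12, had 2105 counts in replicate 1 and 5395 in replicate 2. Snord15b and Snord15a, both in Rps3, had 1742 and 5674 counts, and 148 and 3176. Gm26448 in Rpsa had 426 and 1458 counts. These guests were all higher in replicate 2 once scaled for depth. Snora64 in Rps2 had 684 counts in replicate 1 and 579 in replicate 2, and Snora52 in Rplp2 had 1507 and 353 counts.

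Guests and hosts differed in their ratio between libraries. Of 21 guests that averaged 10 counts or more, only Snora52 was higher in replicate 1, and the median log2 ratio of replicate 1 over replicate 2 was -2.06. Their 17 hosts had a median of -0.18, and in 19 of the 21 pairs the guest lay below its host. The 103 other small nucleolar RNAs of that depth had a median of -1.64, with 23 higher in replicate 1, so guests of ribosomal protein genes shared their direction with the rest of the class. The size ranges in the labels were 209 to 891 bases for replicate 1 and 186 to 747 bases for replicate 2, and their part in this was not tested.

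**Figure D5:**
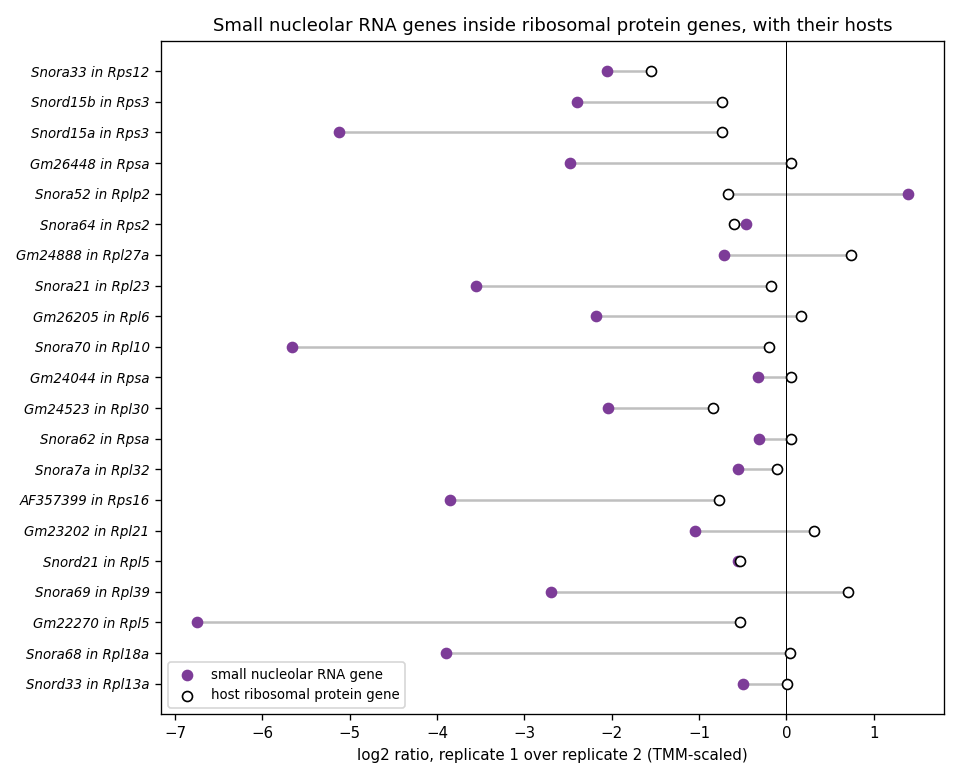
Log2 ratio of replicate 1 over replicate 2 on TMM-scaled counts for 21 small nucleolar RNA genes (purple) and the ribosomal protein genes that hold them (open circles), ordered from the highest mean count at the top. Of the purple points, only Snora52 lies right of 0, and 19 lie left of their host.

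Start sites were examined in RefSeq (GRCm38.p6), which gave 77 starts for 65 of the 85 genes. A C at the start followed by at least 4 pyrimidines was found at 14 of the 77 starts, 18.2%, against 2.47% of 32774 other starts. A run of at least 8 pyrimidines within 10 bases of the start was found at 30 starts, 39.0%, against 13.6% of the others. Where a gene had several starts, such as Rps24 with 2, a start of the first kind was chosen. Failing that, the start with the longest run was chosen. The windows below hold 10 bases before and 20 bases from an annotated start. The longest pyrimidine run is in capitals where it reaches 8 bases. Windows are given for 3 genes with a run among the 12 highest by mean TPM (Rplp2, Rps24 and Rpl13a). Windows are also given for Rps27, the paralog Rpl22l1, and Rps3a1, where no such run was found. They lie at chr7:141447641-141447670 (Rplp2, plus strand), chr14:24490668-24490697 (Rps24, plus), chr7:45128726-45128755 (Rpl13a, minus), chr3:90213629-90213658 (Rps27, minus), chr3:28805498-28805527 (Rpl22l1, plus) and chr3:86142649-86142678 (Rps3a1, minus):
Rplp2: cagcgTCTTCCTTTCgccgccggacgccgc
Rps24: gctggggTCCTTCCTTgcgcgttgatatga
Rpl13a: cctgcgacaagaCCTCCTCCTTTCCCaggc
Rps27: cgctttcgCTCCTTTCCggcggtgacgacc
Rpl22l1: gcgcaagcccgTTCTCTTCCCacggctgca
Rps3a1: gccggaagggcgaaagagcaagggtcacgt

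Genes with and without a tract stood at both ends of the range of levels. Rps3a1 and Rpl36a, among the highest genes by TPM, lacked a run of 8 pyrimidines at their annotated starts, and Rpl22l1, among the lowest, had one. In the 300 bases around each start, 250 before and 50 after, CCGGAAG, the core of ETS factor sites, was found on either strand at 27 of 77 starts, 35.1%, against 8.80% of other starts. AAGATGGC, the core of YY1 sites, whose first 3 letters can overlap the last 3 of CCGGAAG, was found at 10.4% against 2.73%. CACGTG, the E-box bound by Myc, was found at 10.4% against 7.14%, and a GATA site, AGATAAG, at 1.30% against 3.05%. These matches describe letters in a window, and a start placed a few bases away changes whether a tract is found.

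Other genes of the same pathway were taken from lists. Of ribosomal proteins outside the naming rule, Fau, a fusion of a ubiquitin-like protein with Rps30, had 41.2 TPM in replicate 1 and 40.2 in replicate 2. Rack1, the signalling scaffold of the small subunit, had 29.5 and 29.1 TPM. Rps27a, a ubiquitin fusion inside the set, had 33.7 TPM in replicate 1 and 29.3 in replicate 2.

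Of 7 genes for chaperones and import or assembly factors of single ribosomal proteins, 2 had at least 1 TPM in both libraries. The share of all nuclear protein-coding genes at that level was 23.9%. Nap1l1, a histone chaperone, had 22.3 TPM in replicate 1 and 12.6 in replicate 2, and Bccip, the chaperone of Rpl23, had 7.56 and 3.10 TPM. Tsr2, the chaperone of Rps26, had 1.18 and 0.58 TPM, and Ltv1, an assembly factor of the small subunit, had 1.22 and 0.64 TPM. Pdcd2, the partner of Rps2, had 1.12 and 0.83 TPM. For comparison, Rps26, the client of Tsr2, had 38.2 TPM in replicate 1 and 42.8 in replicate 2. Heatr3, which imports Rpl5, had 0.22 TPM in replicate 1 and 0.90 in replicate 2. Grwd1, the chaperone of Rpl3, had 0.03 and 0.31 TPM from 7 and 77 counts. By TPM Tsr2 stood in the top 28.0% of nuclear protein-coding genes in replicate 1 and the top 30.6% in replicate 2. Grwd1, the lowest of the 7 by mean TPM, stood in the top 48.5% and 36.5%.

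Of 10 genes of the signalling that acts on pyrimidine tracts, Rps6 included, 5 had at least 1 TPM in both libraries. Among all nuclear protein-coding genes that share was 23.9%. Rps6kb1, an S6 kinase, had 9.85 TPM in replicate 1 and 3.37 in replicate 2, and Rps6kb2 had 3.75 and 1.57 TPM. Larp1, which binds the tracts, had 3.35 and 2.67 TPM, and its relative Larp4 had 1.93 and 0.81 TPM. Mtor, the kinase at the head of the pathway, had 2.94 and 1.91 TPM. These regulators stood in single digits. Its partners Rptor and Mlst8 had 1.36 and 0.87 TPM, and 1.25 and 0.83 TPM. The translation repressors Eif4ebp1 and Eif4ebp2 had 1.66 and 0.82 TPM, and 1.77 and 0.96 TPM.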

How the data were processed

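Total RNA-seq of 2 CFU-E libraries was read from tables the authors deposited on mm10 with GENCODE M4, per the notes deposited with the files. Which aligner and quantifier were run is not stated in the labels or headers used here. Per the file headers, the deposited tables hold expected counts, TPM, posterior mean TPM and, for each transcript, its percent of the gene. Per the file headers, the deposited posterior SD of a count (a score) and lengths in bases were used to describe genes only. Symbols, types and coordinates came from GENCODE M21, and 42462 of 43346 Ensembl rows matched on the identifier. Expected counts were rounded to whole numbers to compute TMM factors (edgeR 4.0.16, R 4.3.3) and, as an alternative, DESeq2 1.42.0 size factors; ratios used the unrounded counts with a prior count of 0.5. TMM effective sizes were 61216283 and 37709102. Other steps used Python with pandas and numpy, and the code for the ratio was checked on simulated counts with known fold changes, which tests no condition. Copies were found by shared words of 50 bases in M21 transcripts, so genes absent from M21 are missed. Genes were named by a rule: the 10 highest and 8 lowest by mean TPM, paralogs and counterparts, the lists, the 5 largest replicate differences each way at a mean count of at least 50, genes with a major transcript under 60%, and the 6 pseudogenes and 6 small nucleolar RNAs of highest count. The genes and lists were chosen with earlier results of these data known. The spread between the libraries may be technical. Intervals and floors cover counting error only. Values of some single genes are not reported here.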

Additional observations from a re-analysis of the deposited data

How the results depend on the processing

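The count of 81 genes reaching 1 TPM was 75 at a minimum of 10 TPM and 82 under 4 other settings, and lay between 81 and 82 with 1 library left out. The median of 39.5 TPM became 407 on the scale of nuclear protein-coding TPM alone, another unit, and 48.0 with copies added, and lay between 33.6 and 45.5 with 1 library left out. The share of 1.41% of nuclear protein-coding counts became 3.99% of TPM and 1.66% with copies added, and lay between 1.32 and 1.505 with 1 library left out. The log2 ratio of large to small subunit, -0.04, was 0.0843 by counts per base of full length, 0.0491 without paralogs, 0.0379 for genes averaging 50 counts or more, and -0.70 as a mean of log2(TPM + 0.1), and lay between -0.16 and 0.0846 with 1 library left out. The median log2 ratio between libraries, -0.16, became 0.56 on deposited TPM, and 17 genes in place of 6 were then 2-fold apart; the share of all TPM held by protein-coding genes differed between the libraries, as given above. The 3 genes with a major transcript under 60% became 6 to 9 when 1 library was required. Adding copies, and Rps27rt to Rps27, was chosen after seeing the data. Of 87 alternatives run, 60 left a result within its limit. The limit was the SD between libraries for a mean, 0.1 for the median log2 ratio between libraries, and 1.5 times for a count. Leaving 1 library out always moves a mean of 2 libraries by less than their SD. For such means that setting could fail only by a change of sign. Depth limits Rpl27, Rpl22l1 and Rps27l, with 66 to 291 counts a library, and 2 libraries of 1 donor identifier give no estimate of variation between animals.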

Other observations

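The ribosomal proteins of mitochondria, a separate set that makes the proteins encoded by mitochondrial DNA, stood far below the cytoplasmic ones. Of 77 genes, 40 had at least 1 TPM in both libraries and 0 had at least 10 TPM in both. The shares of all nuclear protein-coding genes were 23.9% and 4.79%. The median of the 77 genes was 1.82 TPM in replicate 1 and 1.22 in replicate 2. Of the factors that rescue stalled ribosomes, which are known to matter in red cells, Hbs1l had 8.06 TPM in replicate 1 and 5.31 in replicate 2. The recycling factor Abce1 had 5.48 and 2.62 TPM, and Pelo, the partner of Hbs1l, had 1.91 and 1.11 TPM. The read-through gene Gm28037, which overlaps Rpl24, had 1210 counts in replicate 1 and 0 in replicate 2, against 2790 and 1108 counts for Rpl24.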
